A study of Mus musculus with 6 samples.

Results

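Detected microRNA gene transcripts were measured in mouse CD8+ T cells, the T cells that kill infected and malignant cells. MicroRNA genes were taken from probe sets annotated to exactly 1 symbol that is Mir followed by a digit or begins with Mirlet. A gene counted as detected when its mean over all 6 arrays reached 3.83 on the log2 scale. That threshold is the 95th percentile over 1394 genes of olfactory and vomeronasal receptors, taken as a guide to background. Of 483 microRNA genes on the array, 144 (29.8%) reached it and 339 did not, while 51.5% of all 22180 genes reached it. The genes were chosen by their mean level over both genotypes and not by the contrast between them.

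The 3 arrays labelled Dot1l knockout and the 3 labelled wild type came from C57BL/6 mice. Dot1l, which encodes a methyltransferase of histone H3, was floxed on both alleles and the mice were crossed to CD4-Cre mice, in which the Cd4 promoter drives Cre recombinase in developing T cells. The controls are described only as wild type, and the labels give no age, sex or exon of the deletion. Untreated CD8+ T cells were taken from peripheral lymph nodes and spleen with a magnetic kit. The number of animals behind each group is not stated, so a p-value covers only how these samples vary, and that variation may be technical.

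MicroRNA genes are transcribed as long primary transcripts, many of them inside introns of host genes. Drosha cuts out a hairpin in the nucleus, Dicer trims it in the cytoplasm, and an Argonaute protein holds the mature strand, whose seed bases pair with target messages. Several microRNA families set the proliferation, survival and effector programmes of T cells. The arrays were hybridised with cDNA of total RNA, so a probe set of a microRNA gene can read primary transcript, hairpin or host intron, and its value is not the amount of mature microRNA. In such bulk samples, fewer cells of a type and less RNA per cell cannot be told apart.

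The sequences below belong to the microRNA genes whose transcripts differed between the genotypes, and to seed families described later. Mature sequences run 5′ to 3′ with the seed, bases 2 to 8, in capitals. They are from RefSeq (GRCm38.p6), which held a hairpin for 115 of the 144 genes. The first set are products of the 6 genes with the smallest p among those that were higher in knockout arrays.
mmu-miR-1904: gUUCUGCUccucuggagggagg
mmu-miR-1938: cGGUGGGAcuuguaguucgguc
mmu-miR-5123: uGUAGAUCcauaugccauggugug
mmu-miR-5103: uCAUCCGGgauccccugagg
mmu-miR-27a-3p: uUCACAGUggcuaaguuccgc
mmu-miR-505-3p: cGUCAACAcuugcugguuuucu

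These 6 share no seed. Further genes higher in knockout arrays encode products with yet other seeds, and miR-680 and miR-99b belong to the pair that was lower.
mmu-miR-3066-5p: uUGGUUGCuguagauuaaguag
mmu-miR-677-5p: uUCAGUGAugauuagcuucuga
mmu-miR-1931: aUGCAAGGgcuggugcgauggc
mmu-miR-7a-5p: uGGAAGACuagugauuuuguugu
mmu-miR-680: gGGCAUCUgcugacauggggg
mmu-miR-99b-5p: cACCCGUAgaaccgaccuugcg

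The hairpin of Mir5123 (chr4:40850056-40850138, minus strand) is shown because it repeats itself. Capitals mark the mature stretch by its RefSeq coordinates.
Mir5123 hairpin: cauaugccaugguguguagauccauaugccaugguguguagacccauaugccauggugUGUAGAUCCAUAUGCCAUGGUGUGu
Shifted by 22 bases, 59 of its 61 comparable bases equal the base in their place. It was the 1 hairpin of 115 from detected genes that matched itself at 80% or more, against 0 of 285 hairpins under the level threshold. The hairpin of Mir1904 (chr13:109903809-109903888, plus strand), whose gene had the largest rise, holds no such repeat.
Mir1904 hairpin: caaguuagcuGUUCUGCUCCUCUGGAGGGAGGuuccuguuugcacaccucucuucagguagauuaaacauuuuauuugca

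Dot1l itself read 7.31, 7.26 and 7.33 on the knockout arrays and 7.46, 6.96 and 7.18 on the wild type arrays. The groups overlapped and the difference was 0.10 (SE 0.13, interval -0.20 to 0.40, adjusted p = 0.765). A lower level in the arrays labelled knockout was therefore not seen with the Dot1l probe set. Whether this probe set covers the deleted exon is not known, so its values cannot show whether the deletion took place. The 6 measured markers of CD8 T cells lay at 8.51 to 11.8 in both groups and none passed. Of their differences 5 were negative, and they ran from -0.18 to 0.05. Of 7 measured B cell markers, 3 rose (Cd79a, Ms4a1 and Cd22), against 4.30% of all genes, while Pax5 and Blk differed by -0.19 and -0.09. The mean level of the list was 4.79 to 5.03 on knockout arrays and 4.23 to 4.51 on wild type arrays. Of 4 NK cell markers 1 rose (Tyrobp), and all 4 differences were positive, with list means of 4.49 to 4.56 on knockout arrays and 3.82 to 4.25 on wild type arrays. Of 7 dendritic cell markers 2 rose (Itgax and Bst2), but 4 differences were negative, with Cd209a at -0.37 without overlap and Xcr1 at -0.22. The dendritic list means were 5.30 to 5.49 on knockout arrays and 5.15 to 5.25 on wild type arrays. Of 12 myeloid markers Itgam rose and Mpo fell, and 9 differences were negative, among them Adgre1 at -0.60 without overlap. The myeloid list means were 3.67 to 3.73 on knockout arrays and 3.75 to 4.001 on wild type arrays. Of 5 CD4 T cell markers Cd40lg fell and 4 differences were negative. Ctla4 differed by -0.54 without overlap (adjusted p = 0.0752), Foxp3 by -0.25 and Zbtb7b by -0.06, while Cd4 itself differed by 0.06. The CD4 list means were 4.77 to 4.82 on knockout arrays and 5.11 to 5.16 on wild type arrays. None of the 16 measured erythroid, platelet and stromal markers passed. The part of other cell types in the results below was not tested. Array medians over 16010 unnamed probe sets were also higher in knockout arrays, at 3.55 to 3.63, than in wild type arrays, at 3.34 to 3.49.

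Most detected microRNA genes were dim. Their median level was 4.72, with 88 of 144 under 5 and 5 at 8 or above. The brightest was Mir5099, with 11.49, 11.53 and 11.64 on knockout arrays and 11.26, 11.40 and 11.25 on wild type arrays. Its groups did not overlap, but the difference of 0.25 (SE 0.10, adjusted p = 0.232) did not pass. Mir449b and Mir703 followed at a mean of 10.92 each. Mir449b lies within the span of Cdc20b, and its cluster neighbours Mir449a and Mir449c were both under the threshold. The next by level were Mir467c (8.32), Mir1954 (8.18), Mir467e (7.91), Mir1195 (7.68), Mir1938 (7.65), Mir5123 (7.62) and Mir692-1 (7.40). Of these 10 brightest genes, only Mir1938 and Mir5123 passed the test. These are levels of single probe sets, so their order is not an order of transcript abundance.

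MicroRNA genes known from T cells and those known from other tissues reached the threshold in similar shares. Of 76 measured genes in the groups chosen for T cells and blood, 28 (36.8%) reached the threshold, and of 24 chosen for other cell types, 8 (33.3%) did. Those 8 were the neuronal Mir9-1, Mir9-3 and Mir124a-2, the epithelial Mir200a and Mir200c, the pancreatic islet Mir375, the erythroid Mir451a and the smooth muscle Mir143. In contrast Mir150, abundant as mature microRNA in resting lymphocytes, read 2.54, 2.80 and 2.61 on knockout arrays and 3.26, 2.76 and 2.19 on wild type arrays. Mir146, induced by T cell activation, lay at 1.65 to 1.70 on knockout arrays and 1.67 to 1.77 on wild type arrays. "Detected" is therefore used here only for a value at or above the threshold. None of the 8 genes known from other tissues passed the test, and their differences ran from -0.33 to 0.07.

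Of the 144 genes, 16 (11.1%) passed at an adjusted p under 0.05 (limma, Benjamini-Hochberg over all 22180 genes), 14 of them higher and 2 lower in knockout arrays. Over all genes 5.50% passed, 4.30% higher and 1.20% lower, and among the 11425 genes at or above the same level threshold 9.94% passed. Those genes were brighter, with a median level of 6.18 against 4.72, so the shares were not matched on level. The median difference was 0.04 over the 144 genes, 0.04 over the genes at or above the threshold and -0.01 over all genes. Of the 144 differences 78 (54.2%) were above 0, against 55.9% of genes at or above the threshold and 47.2% of all genes. The count of 78 was 59 under another quantile normalization and 70 under median centring, where the median differences of the 144 were -0.10 and -0.0127. The groups did not overlap in 36 of the 144 genes, against 33.7% of genes at or above the threshold and 23.5% of all genes. Under the threshold, 6 of 339 microRNA genes passed. Of the 144, 10 reached the threshold with a wild type mean under it, and a gene that did so had to be higher in knockout arrays. Mir3075, Mir721 and Mir3109 are among these 10, and without genes under the threshold in either group 13 of 128 passed.

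**Figure D1:**
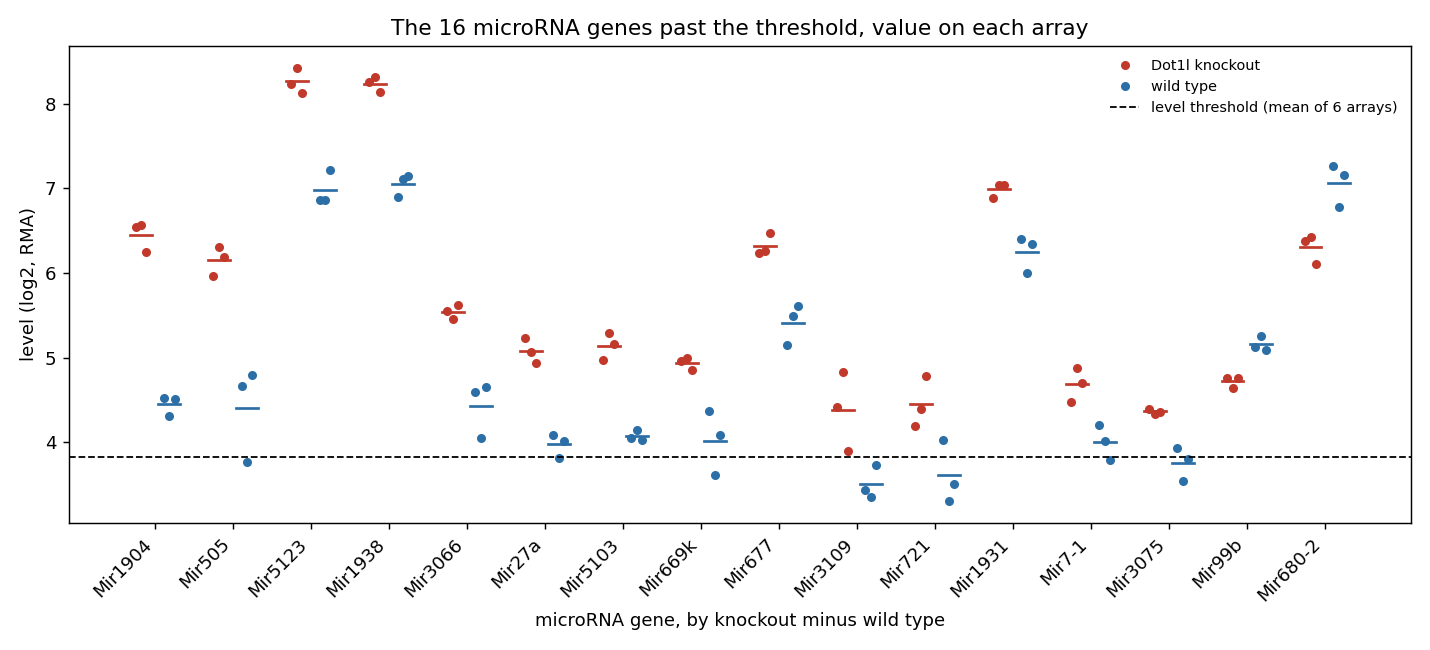
Level (log2, RMA) of the 16 microRNA genes past the threshold on each array, Dot1l knockout (red, left) and wild type (blue, right), with a bar at the mean of 3 arrays and genes ordered by their difference. The groups overlap in none of the 16 genes, and only Mir99b and Mir680-2 are lower in knockout arrays.

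Mir1904 had the largest rise, with 6.54, 6.57 and 6.25 on knockout arrays and 4.52, 4.31 and 4.51 on wild type arrays. Every knockout value lay far above every wild type value. The difference was 2.01 (SE 0.12, 4.02-fold, adjusted p = 3.74e-05), and it was the smallest p of the 144. Mir505 read 5.97, 6.31 and 6.20 on knockout arrays and 4.67, 3.77 and 4.80 on wild type arrays. Its difference was 1.75 (SE 0.24, adjusted p = 0.00298), and its second wild type array was the lowest of the 6. Mir5123 read 8.24, 8.43 and 8.13 on knockout arrays and 6.86, 6.86 and 7.22 on wild type arrays. The knockout values were higher by 1.28 (SE 0.13, adjusted p = 0.000628), and the groups stood well apart.

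Mir1938 read 8.26, 8.32 and 8.14 on knockout arrays and 6.90, 7.11 and 7.14 on wild type arrays. Its difference was 1.19 (SE 0.11, adjusted p = 0.000339), with little spread in either group. Mir3066 stood at 5.55, 5.46 and 5.62 on knockout arrays and at 4.59, 4.05 and 4.66 on wild type arrays. It was higher by 1.11 (SE 0.16, adjusted p = 0.00368), and the second wild type array was again the lowest. Mir27a, reported to restrain effector functions of T cells, read 5.24, 5.06 and 4.94 on knockout arrays and 4.09, 3.82 and 4.02 on wild type arrays. It was higher by 1.11 (SE 0.12, 2.15-fold, adjusted p = 0.000831), and all 3 knockout arrays lay above all wild type arrays.

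Mir5103, which lies in no other gene's span, had 4.98, 5.29 and 5.16 on knockout arrays and 4.05, 4.15 and 4.03 on wild type arrays. It rose by 1.06 (SE 0.11, adjusted p = 0.000658). Mir677 stood at 6.23, 6.27 and 6.48 on knockout arrays and at 5.15, 5.49 and 5.61 on wild type arrays, and rose by 0.91 (SE 0.14, adjusted p = 0.00515). All 8 genes described so far still passed whichever of the 6 arrays was removed. Mir1931 rose by 0.74 (adjusted p = 0.00989) and passed in 5 of those fits, missing at 0.0531 without the third knockout array.

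The other 7 calls were less stable, each passing at most 3 times out of 6 when arrays were removed in turn. Mir669k rose by 0.91, Mir721 by 0.84, Mir3109 by 0.87, Mir7-1 by 0.69 and Mir3075 by 0.61, with adjusted p of 0.0150 to 0.0478. Leaving out 1 array at a time, Mir669k and Mir7-1 passed in 3 of 6 fits, Mir3075 in 2 and Mir721 and Mir3109 in 1. Of 11 other settings, Mir3109 lost its call in 7 and Mir721 in 6, both under median centring, another quantile normalization and the replicate block. Mir7-1 lost its call in 3, among them another quantile normalization. Mir7-1 encodes miR-7a, whose seed GGAAGAC is shared by Mir7b, and Mir7b differed by -0.12 (adjusted p = 0.72).

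Of the pair that fell, Mir680-2 read 6.38, 6.43 and 6.10 on knockout arrays and 7.26, 6.78 and 7.16 on wild type arrays. Its difference was -0.76 (SE 0.15, adjusted p = 0.0174), and it passed in 2 of the 6 fits that left out an array. Mir680-3, which shares its seed GGCAUCU, differed by -0.58, with overlapping groups and an adjusted p of 0.354. Mir99b, whose mature product belongs to a family known to target the growth kinase mTOR, read 4.76, 4.64 and 4.76 on knockout arrays and 5.12, 5.26 and 5.09 on wild type arrays. It fell by 0.44 (adjusted p = 0.0371) and passed in 0 of the 6 fits that left out an array, where its adjusted p was 0.0674 to 0.157. When the median of the unnamed probe sets was added as a covariate, Mir1904 (adjusted p = 0.0183) and Mir1938 (adjusted p = 0.0384) passed and the other 14 of the 16 did not. Among those 14, differences with the covariate were 1.12 for Mir5123, 1.06 for Mir677, 1.01 for Mir5103, 0.98 for Mir27a and -1.17 for Mir680-2, while Mir505 stood at 0.71, Mir669k at 0.29 and Mir721 at 0.16. This covariate differs between the groups, so its part in these results cannot be told apart from genotype.

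**Figure D2:**
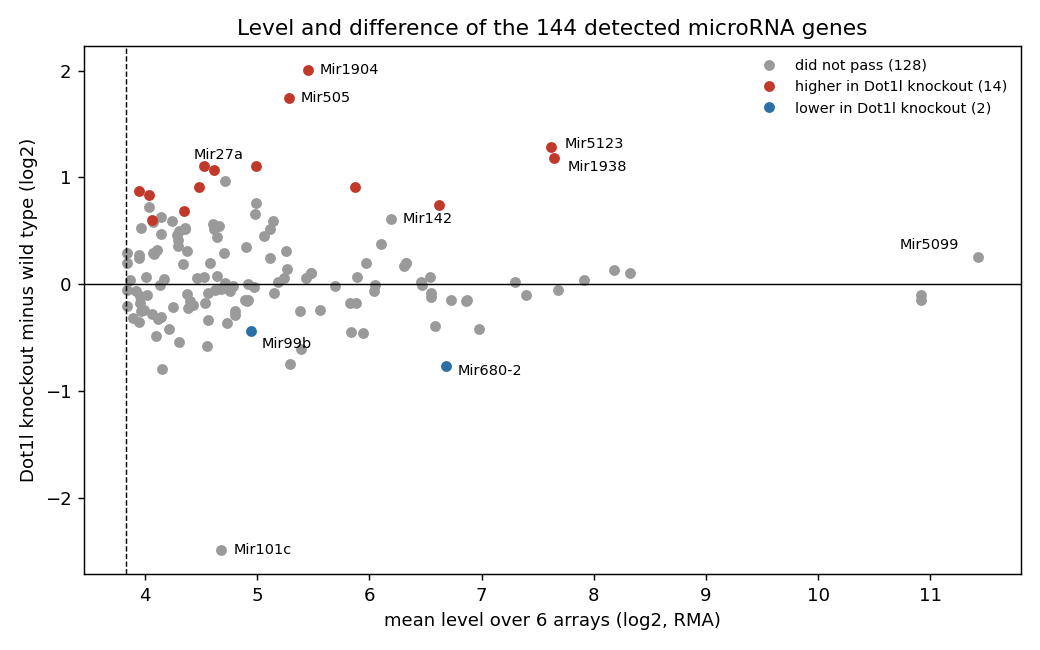
Difference between Dot1l knockout and wild type (log2) against the mean level over 6 arrays (log2) for the 144 detected microRNA genes, with the level threshold as a dashed line. Genes that passed lie between means of 3.95 and 7.65, and Mir101c has the largest negative difference without passing.

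The largest difference in size belonged to a gene that did not pass. Mir101c, named after its values were seen, read 3.40, 3.37 and 3.51 on knockout arrays and 8.10, 2.92 and 6.73 on wild type arrays. The wild type values spanned the knockout values, the difference was -2.49 (SE 1.02), and the adjusted p was 0.235. Its knockout mean was under the level threshold, so the gene counted as detected through wild type arrays alone. Among genes that narrowly missed, Mir16-2 was higher by 0.59 (adjusted p = 0.0504), Mir5112 and Mir761 differed by -0.75 and -0.42 (adjusted p = 0.0549 each), Mir15a was higher by 0.52 (adjusted p = 0.0617) and Mir17 by 0.46 (adjusted p = 0.0628).

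The Mir17 cluster, which promotes lymphocyte proliferation and survival, was detected as Mir17, Mir18, Mir19a and Mir20a. All 4 had positive differences, of 0.14 to 0.57, except that Mir18 turned to -0.05 under another quantile normalization, and none passed. Mir17 read 4.52, 4.53 and 4.50 on knockout arrays and 4.28, 3.87 and 3.998 on wild type arrays, without overlap. The groups overlapped for the other three. Mir106b and Mir20b, from paralogous clusters, differed by 0.05 and -0.06. Mir17, Mir20a, Mir106b and Mir20b share the seed AAAGUGC.
mmu-miR-17-5p: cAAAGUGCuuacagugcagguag
mmu-miR-20a-5p: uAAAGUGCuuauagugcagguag
mmu-miR-106b-5p: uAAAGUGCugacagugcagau
mmu-miR-20b-5p: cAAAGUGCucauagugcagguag

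The Mir15 and Mir16 family, which restrains the cell cycle, had 4 of 6 measured genes at or above the threshold, and these 4 share the seed AGCAGCA. Mir195a and Mir497, at a locus of their own, were under it. Mir16-2 read 5.17, 5.68 and 5.45 on knockout arrays and 4.68, 4.83 and 5.01 on wild type arrays. Its cluster neighbour Mir15b differed by 0.32 with overlapping groups. At the other locus Mir15a read 4.54, 4.77 and 4.53 on knockout arrays and 4.17, 3.83 and 4.27 on wild type arrays, and Mir16-1 differed by -0.04. The noncoding host of that locus, Dleu2, differed by 0.49 (SE 0.15, adjusted p = 0.110). Mir16-1 and Mir16-2 encode the same 5′ product, so these transcripts separate loci that the mature sequence does not.
mmu-miR-15a-5p: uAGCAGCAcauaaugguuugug
mmu-miR-16-5p: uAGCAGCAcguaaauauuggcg

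The let-7 family, which opposes proliferation in many cells, had 4 of 12 measured genes at or above the threshold, all with the seed GAGGUAG. Mirlet7i read 4.78, 4.89 and 4.96 on knockout arrays and 4.02, 4.39 and 4.66 on wild type arrays, without overlap, and differed by 0.52 (SE 0.16, adjusted p = 0.106). Mirlet7d differed by 0.52 with overlapping groups (adjusted p = 0.251). Mirlet7a-1 and Mirlet7f-1, in 1 cluster with Mirlet7d, differed by 0.04 and 0.19, with wild type values of 3.04 to 4.71 and 3.32 to 4.43. The wild type mean of Mirlet7f-1 was 3.74, under the level threshold, so its sign was fixed by the level rule. Of the 8 let-7 genes under the threshold, none passed.
mmu-let-7i-5p: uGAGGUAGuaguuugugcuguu
mmu-let-7d-5p: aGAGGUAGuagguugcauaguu

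Mir23a, which lies beside Mir27a in 1 cluster, differed by 0.50 (SE 0.23, adjusted p = 0.301), with 4.33, 5.06 and 4.26 on knockout arrays and 4.03, 3.71 and 4.41 on wild type arrays. These groups overlapped, unlike those of Mir27a. Mir142, a marker of blood cells, read 6.34, 6.30 and 6.85 on knockout arrays and 6.06, 5.49 and 6.12 on wild type arrays. The groups did not overlap, and the difference was 0.61 (SE 0.20, 95% interval 0.16 to 1.05, adjusted p = 0.130). Mir181c and Mir181d, of the family that sets T cell receptor sensitivity, differed by 0.02 and 0.10, with 95% intervals of -0.25 to 0.30 and -0.20 to 0.41, and by -0.18 and -0.10 under another quantile normalization. Mir212, of a cluster induced by activation, differed by 0.41 (adjusted p = 0.188) with overlapping groups. Of 7 further detected genes reported in T cells, Mir99b passed, while Mir30d, Mir139, Mir191 and Mir425 differed by -0.29 to -0.15, Mir5099 by 0.25 and Mir5100 by 0.55. Mir191 had another, dimmer probe set that differed by 0.62, against -0.29 for the one used.

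**Figure D3:**
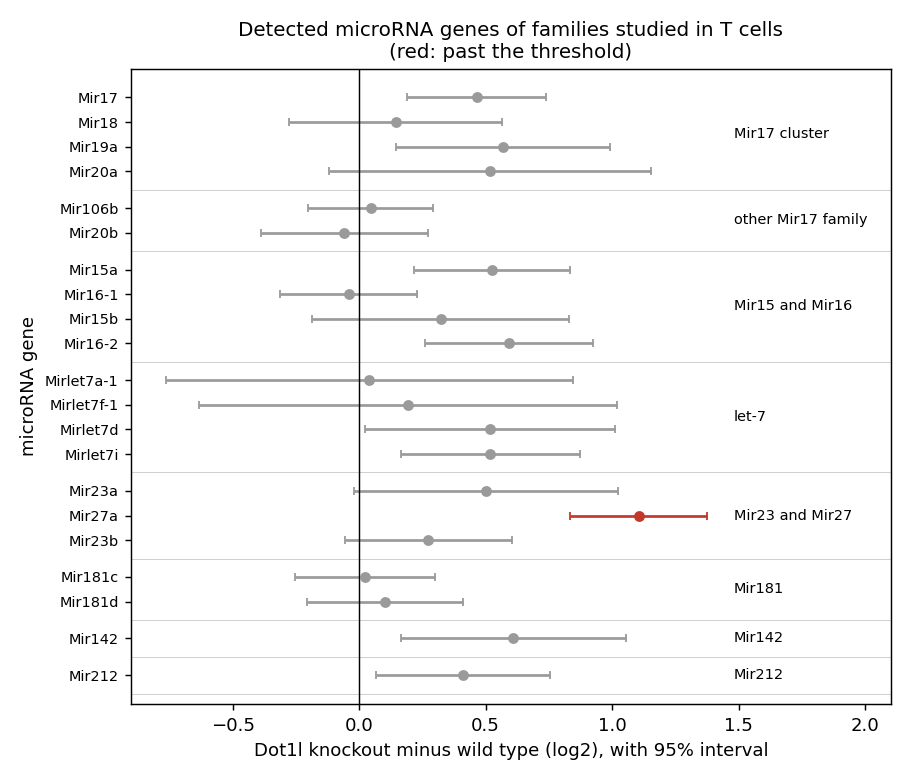
Difference between Dot1l knockout and wild type (log2) with its 95% interval for detected microRNA genes of families studied in T cells, 3 arrays per group. Mir27a alone among these passed over all genes (red), while the 4 genes of the Mir17 cluster have differences of 0.14 to 0.57, of which Mir18 turns to -0.05 under another quantile normalization. Genes with a wild type mean under the level threshold, among them Mirlet7f-1, had to be higher in knockout arrays.

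Clusters on chromosome 12 held differences of both signs. In the large imprinted cluster 5 of 32 measured genes were detected (Mir494, Mir539, Mir654, Mir667 and Mir758), with differences of -0.17 to 0.19 and 1 of 5 positive. In the cluster near Rtl1, Mir540, Mir665 and Mir673 differed by -0.46 to 0.07. None of these 8 genes passed.

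The Mir669, Mir467 and Mir466 genes detected within the span of Sfmbt2, which encodes a Polycomb-related protein, are closely related copies, so their probe sets may share RNA. Of 8 such genes, 1 passed (Mir669k), and differences ran from -0.21 to 0.91. Mir669k read 4.96, 4.998 and 4.85 on knockout arrays and 4.37, 3.62 and 4.08 on wild type arrays. It had several probe sets, of which 3 carried exactly these values, and the others differed by 0.17 to 0.90. Sfmbt2 itself rose by 0.84 (SE 0.12, adjusted p = 0.00412). The strand of these copies relative to Sfmbt2 was not known here.

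Host genes gave a second readout of the same loci. For 56 of the 144 genes a host span on the same strand was known, and 52 had a measured host. Among the 9 such genes that rose, 1 host rose (Anxa2), and for 6 the 95% interval of the microRNA gene lay wholly above that of its host. These 9 include Mir3075, Mir721 and Mir3109, which had to be higher because their wild type means were under the level threshold. Over all genes 4.30% rose, so 1 of 9 hosts is a small count from which no rate can be read. Over the 52 pairs the differences of microRNA gene and host had a Spearman rho of 0.10 and a Pearson r of 0.05. This describes pairs that share arrays, and some hosts enter it more than once.

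Mir1904 lies in Pde4d, which encodes an enzyme that degrades cyclic AMP. Pde4d read 3.25, 3.38 and 3.20 on knockout arrays and 3.26, 3.04 and 3.31 on wild type arrays, under the level threshold in both groups. Its difference was 0.07 with a 95% interval of -0.18 to 0.33, against 1.73 to 2.28 for Mir1904. Mir5123 lies in B4galt1, which encodes a galactosyltransferase of protein glycosylation. B4galt1 read 10.26, 10.20 and 10.14 on knockout arrays and 10.29, 10.33 and 10.32 on wild type arrays. Its interval was -0.32 to 0.10, against 0.98 to 1.59 for Mir5123.

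The same held for other bright hosts. Ifrd1, a transcriptional regulator that holds Mir1938, differed by -0.23 (interval -0.61 to 0.15), against 0.94 to 1.43 for Mir1938. Atp5b, the beta subunit of ATP synthase that holds Mir677, differed by -0.002 (interval -0.24 to 0.24), against 0.60 to 1.22 for Mir677. Nol10, a nucleolar protein gene that holds Mir3066, differed by 0.02 (interval -0.27 to 0.31), against 0.75 to 1.47 for Mir3066. Hnrnpk, which encodes an RNA-binding protein and holds Mir7-1, differed by 0.01 (interval -0.21 to 0.22), against 0.37 to 1.01 for Mir7-1. For Zmiz1 with Mir3075 and Cux1 with Mir721 the intervals overlapped. Spaca6, host of Mir99b, differed by 0.21 (interval -0.08 to 0.49) at a mean level of 3.50, under the level threshold.

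Anxa2, which encodes a calcium-dependent membrane-binding protein, went with its microRNA gene in sign. It read 7.88, 7.41 and 7.43 on knockout arrays and 5.40, 5.68 and 5.49 on wild type arrays, a rise of 2.04 (SE 0.15). Mir3109 rose by 0.87, with an interval of 0.39 to 1.36 against 1.71 to 2.37 for Anxa2. The wild type mean of Mir3109 was under the level threshold, so its sign was fixed by the level rule. The shared sign of Mir3109 and Anxa2 therefore shows nothing by itself. Of 48 measured same-strand hosts 7 passed (14.6%), against 5.50% of all genes and 9.94% of genes at or above the level threshold. In 6 of the 52 pairs the host passed and the microRNA gene did not. Rnf213, a ubiquitin ligase gene, rose by 1.69 (SE 0.19, adjusted p = 0.00105), with 9.70, 10.19 and 10.16 on knockout arrays and 8.50, 7.92 and 8.56 on wild type arrays. Its Mir1932 differed by -0.16 (SE 0.18), and the 2 intervals did not overlap. In the other 5, differences were 0.49 for 2900076A07Rik and 0.76 for Mir1839, 0.67 for Tmem184b and -0.22 for Mir1943, 0.67 for Hadhb and 0.29 for Mir1960, 0.54 for Nudt4 and 0.20 for Mir3058, and -0.45 for Zc3h12d and -0.11 for Mir5104. The wild type mean of Mir1960 was 3.69, under the level threshold, so its sign too was fixed by the level rule. With the strand unknown, Mir1931 rose by 0.74 within the span of Cdk17, which fell by 0.57 (adjusted p = 0.0259), and Smc4, whose span holds Mir15b and Mir16-2, fell by 0.54 (adjusted p = 0.0370).

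**Figure D4:**
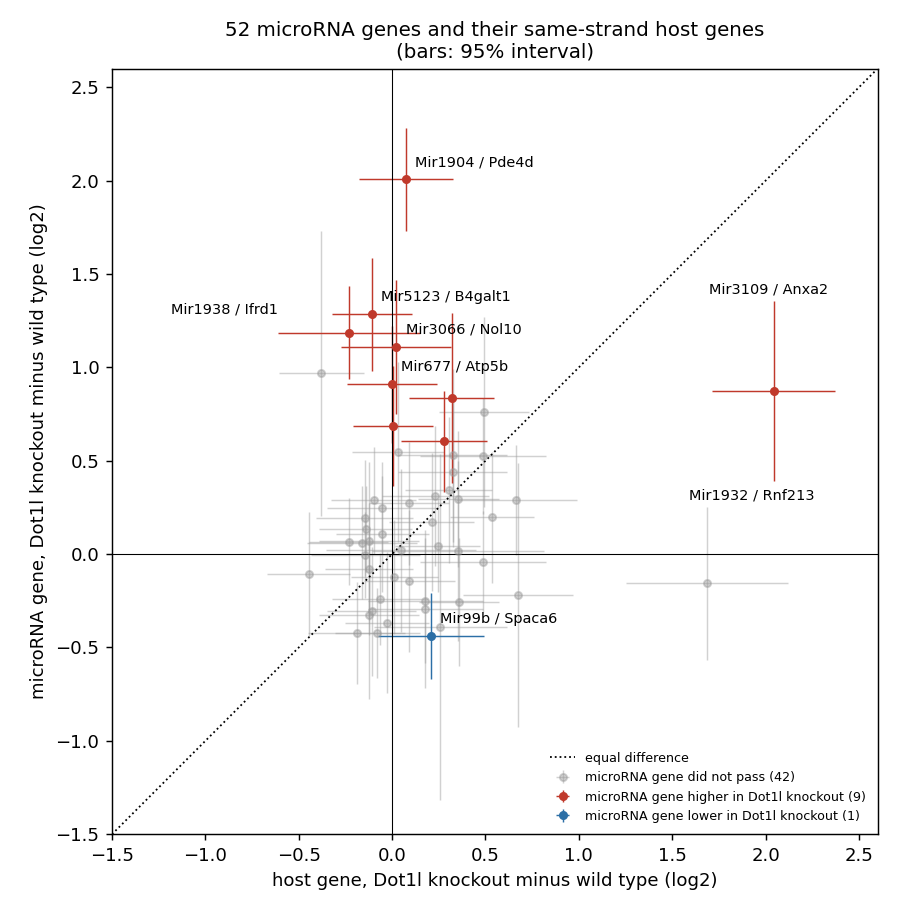
Difference between Dot1l knockout and wild type (log2) of 52 microRNA genes (vertical axis) against that of the host gene on the same strand (horizontal axis), with 95% intervals and a dotted line of equal difference. Of 9 microRNA genes that rose, 8 lie above the line with hosts between -0.23 and 0.32, and Mir3109 lies below it with Anxa2 at 2.04. Mir3075, Mir721 and Mir3109 had to be higher in knockout arrays, because their wild type means were under the level threshold.

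The hairpins of detected genes were richer in G and C than those under the threshold, with a median of 53.3% (n = 115) against 47.1% (n = 285), and of like length, with medians of 84 and 83 bases. Over 400 hairpins the mean level and G and C content had a Spearman rho of 0.42, and within the detected genes one of -0.003. Within the detected genes the difference between genotypes had a rho of -0.43 with G and C content (n = 115), and of -0.45 to -0.34 when any 1 array was left out. Under the threshold it was -0.07. In the 25 detected genes with under 45% G and C the median difference was 0.28 and 4 rose. In the 56 with 45% to 60% it was 0.09 and 6 rose, and in the 34 with 60% or more it was -0.15, with 1 higher and 1 lower. Of all 115, 11 rose, against 4.30% of all genes and 899 of 11425 genes at or above the level threshold. The detected genes include some whose sign the level rule fixed, among them Mir3075, Mir721, Mir3109 and Mirlet7f-1, and no rho or median was computed without them. These are descriptions across genes that share arrays and probe chemistry, and the part of base composition in the calls was not tested.

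**Figure D5:**
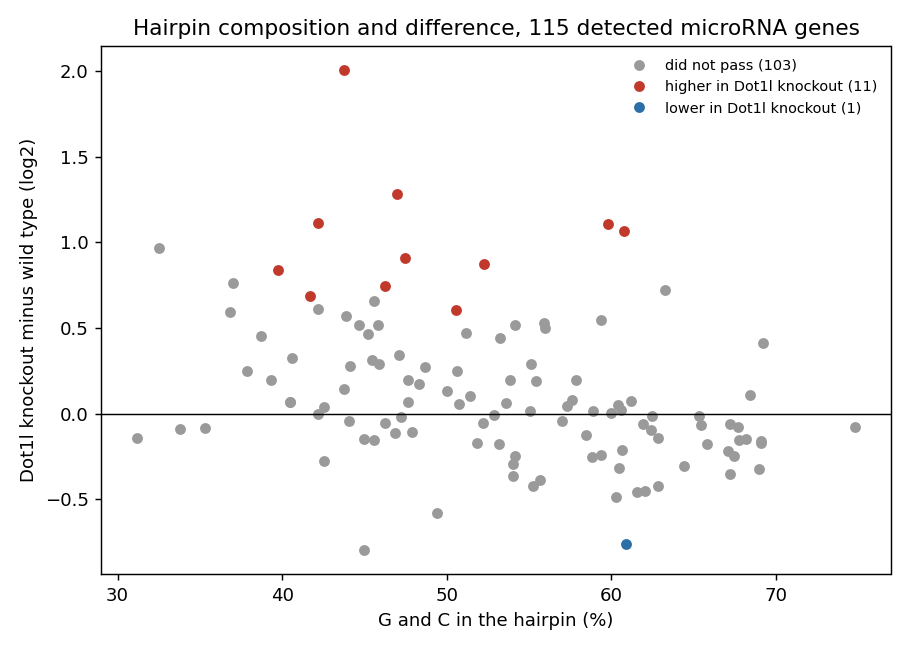
Difference between Dot1l knockout and wild type (log2) against the share of G and C in the hairpin (%) for the 115 detected microRNA genes with a RefSeq hairpin. Those that rose are 4 of 25 with under 45% G and C, 6 of 56 with 45% to 60% and 1 of 34 with 60% or more, against 4.30% of all genes. The median difference is -0.15 in hairpins with 60% or more.

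Genes of microRNA processing and silencing showed 1 call in 29 measured, against 5.50% of all genes, and a median difference of 0.07. Mov10, an RNA helicase that associates with Argonaute complexes, read 7.28, 7.49 and 7.47 on knockout arrays and 6.17, 6.12 and 5.94 on wild type arrays. It rose by 1.34 (SE 0.11, adjusted p = 0.000189), the other 11 measured genes of the silencing complex did not pass, and their lowest difference was -0.18. Of 8 nuclear processing genes none passed, and Adar, which edits double-stranded RNA, differed by 0.39 (adjusted p = 0.0753). Of 9 cytoplasmic genes none passed, with Prkra, a partner of Dicer, at 0.32 (adjusted p = 0.132) and Dis3l2, an exonuclease that degrades tailed let-7 precursors, at 0.29 (adjusted p = 0.154).

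The level threshold cut through a continuous range. Just inside it lay Mir1960, with means of 3.98 on knockout and 3.69 on wild type arrays, and Mirlet7f-1, with 3.93 and 3.74. Just outside lay Mir186, with 3.98 on knockout and 3.64 on wild type arrays, and Mir98, with 3.92 and 3.69. Among genes under the threshold, Mir30e, named after its values were seen, read 3.85, 3.93 and 4.74 on knockout arrays and 3.12, 2.61 and 3.03 on wild type arrays. It rose by 1.25 (adjusted p = 0.0133) but was left out because its mean over all arrays was 3.55.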

How the data were processed

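RNA of CD8+ T cells was measured on 6 Affymetrix arrays, 3 per genotype, grouped by the submitters' labels. Per the submitters' processing notes, the deposited log2 levels were made by the authors with RMA (R 3.1.1), whose settings are not given in the sources used. Values ran from 1.03 to 12.9. For arrays, their number limits the precision.

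Of 41345 probe sets, 23521 named 1 symbol, 1814 several and 16010 none. Per gene the probe set with the highest mean was used, which left 22180 genes. They were fitted together with limma 3.58.1 in R 4.3.3 without covariates, with Benjamini-Hochberg adjustment. The limma fit was tested on simulated data. Sequences, hosts and clusters (starts within 10 kb) came from RefSeq tables. Probe sets naming a microRNA with other genes (136) were kept out.

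The genes and lists were chosen with earlier results of these data known. Named are genes that passed, the 12 smallest p, the 10 highest levels, detected genes of listed families and of clusters with at least 3, their hosts, and processing genes that passed or were among the 4 smallest p. Other names were chosen after values were seen. The alternatives were a replicate block, leaving out arrays, other normalizations, filters, variance models, probe set choices and a covariate.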

Additional observations from a re-analysis of the deposited data

Results flagged for a closer look

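Probe sets that name a microRNA together with other genes were outside the comparisons. When all 41345 probe sets were tested together, 3 of these 136 probe sets passed, each higher in knockout arrays, and their median difference over the 136 was 0.05. They cannot be assigned to a microRNA gene from the annotation alone.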

How the results depend on the processing

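Of 144 detected microRNA genes 16 passed. The count was 9 with all probe sets tested, 9 of 66 with a level threshold higher by 1, 3 with the unnamed probe set median as a covariate, and 9 to 20 when 1 array was left out (10 without knockout replicate 2, 9 without knockout replicate 3). After another quantile normalization 16 passed, 11 higher and 5 lower, so 68.8% of calls were higher against 87.5%. The median difference of 0.04 turned to -0.10 with another quantile normalization and -0.0127 with median centring, and was -0.00208 to 0.0585 when 1 array was left out, the lowest without knockout replicate 2. Of same-strand hosts 7 passed. The count was 4 with all probe sets tested, 4 with the replicate block, 1 with the covariate, 9 with array weights, 10 with a filter at the 50th percentile, 10 with trend and robust fitting, and 2 to 7 when 1 array was left out; it was 2 to 3 when the array was one of the knockouts or wild type replicate 1, and 4 when it was wild type replicate 3. Of processing genes 1 passed, against 2 with a filter at the 50th percentile, 2 with trend and robust fitting, and 1 to 3 when 1 array was left out (3 without wild type replicate 2). The cause of these changes was not tested. Arrays with the same replicate number did not deviate together (correlations of -0.16 to -0.07). So few pairs cannot show whether they share more than a number. With the replicate block 17 microRNA genes passed, 13 of them among the 16. No single gene that passed in either fit changed sign.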
